A study of Mus musculus with 6 samples.

Results

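The 36 genes described here are very long genes expressed in neurons, most of them coding for adhesion molecules, synaptic organisers, receptors, scaffolds and channel partners. They were chosen by name, from a list of symbols, with earlier results of these data known. Each of the 36 symbols matched 1 row among the 78298 genes of the table. All 36 also passed the filter on low values, a mean of at least 10 normalised counts over the 6 libraries, which left 17391 genes for testing. The label "long" held by annotation: the genes spanned 313 to 2271 kb, with a median of 1130 kb, against a median of 22.5 kb for the tested genes. Of the 36, 25 spanned over 1000 kb. The shortest were Cntnap4 at 313 kb and Cntn6 at 371 kb. The label "neuronal" could not be checked in these data, since RNA of all cells of the tissue was pooled in each library.

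The RNA, selected for poly(A) tails, came from brain tissue of the left side in male mice, 1 library per mouse, 3 wild type and 3 homozygous for a Top2b-low allele. That allele carries an auxin-inducible degron, a tag that marks a protein for destruction when auxin is given, inserted by CRISPR/Cas9 at the 5′ end of the coding sequence of Top2b. No drug or chemical was given. The tag lies in the gene itself and is not driven by a promoter of 1 cell type. The protocol in the labels gives an age of 10 weeks, and the series text gives 3.5 months. The strain is not given in the sources used here. All 3 Top2b-low libraries carry 1 genotype label, but in replicate 3 the library name has dNdN in place of the Homo seen in replicates 1 and 2, and the meaning of dNdN is not given. Replicate 3 of each genotype has a library name that begins with N22, and these are called the N22-named libraries.

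The product of Top2b is topoisomerase IIβ, a type II enzyme and the main one in neurons that have left the cell cycle. The enzyme cuts both strands of DNA, passes another stretch through the break and reseals it. In this way it relieves the supercoils and tangles that a travelling RNA polymerase makes. Drugs that block topoisomerases are known to lower the transcripts of very long genes in cultured neurons, which is why long genes are of interest where Top2b is low. The comparison of the genotypes asked how lowered Top2b changes the transcriptome of the adult brain.

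The targeted gene was lower in the labelled direction. Top2b stood at 3160, 3014 and 2485 normalised counts in wild type replicates 1 to 3 and at 2152, 2314 and 1965 in Top2b-low replicates 1 to 3. The genotypes did not overlap, and the log2 difference was −0.42 (SE 0.11), which missed the threshold in limma (adjusted p = 0.99997). Library totals ran from 16963067 to 35246703 reads, the N22-named libraries being the deepest with 28629911 and 35246703. Those libraries also stood apart in markers of brain regions, which were listed with earlier results of these data known. All 8 markers of cerebellar granule cells were lower there, with a summed level of 2251 to 3340 normalised counts against 20321 to 25469 in the other 4 libraries, and Gabra6 was at or near 0. The 8 markers of hindbrain neurons summed to 111 to 190 against 864 to 1602, and 3 of them, Hoxb5, Hoxa5 and Hoxb3, were at 0 in both. Because each genotype holds 1 N22-named library, this difference is not aligned with genotype. Fewer cells of a type and less RNA per cell cannot be told apart in such bulk libraries.

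The long genes were well covered. Their mean level ran from 29.0 normalised counts (Fhit) to 8588 (Dlg2), with a median of 1766 against 366 for the tested genes, and 27 of the 36 averaged over 1000. The lowest single value was 12 reads, for Fhit in Top2b-low replicate 2. Corrected for length, as normalised counts per kb of exon, the highest was Rbfox1 at 1058, followed by Ptprn2 at 641, Dlg2 at 528, Dpp6 at 466 and Anks1b at 451. The lowest were Cntn5 at 29.5, Fhit at 19.4 and Sgcz at 15.1. For 27 members no exon base was shared with another annotated gene. The other 9 shared at most 8.01% of their exon bases, the most being Cntnap4 with Gm45904 on the opposite strand, and whether the counting used strand is not given in the sources used here.

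The long genes showed no common direction with the Top2b-low allele. In Top2b-low libraries 20 members averaged higher and 16 lower, and 33 of the 36 differed by less than 10%, the whole range being −26.8% to 8.56%. No member passed the limma test, with 0% of all tested genes doing so, and no member had an unadjusted p under 0.05, as 262 genes (1.51%) did. With edgeR and with DESeq2 also 0 members and 0 genes passed, with 250 and 166 genes at an unadjusted p under 0.05. The median log2 difference of the members was 0.011, against −0.0021 for all tested genes. Their median absolute difference was 0.059, against 0.078 for all tested genes and 0.047 for tested genes with a mean of at least 1000. Libraries of the genotypes did not overlap for Cntnap2, Csmd3 and Anks1b, 3 of the 36, and for 998 (5.74%) of all tested genes. Whether the members differed from all genes in this was not tested. Of the cell type marker lists, the 8 markers of forebrain excitatory neurons averaged higher in Top2b-low libraries in all 8 cases, with a median of 0.22 and a summed level of 68813 to 86335 normalised counts against 57675 to 73611 in wild type. None of these 8 passed in limma or had an unadjusted p under 0.05. With a term for the N22-named libraries 5 of the 8 had such a p, as did 5.81% of all tested genes. In limma the p was 0.0012 for Camk2a, 0.0032 for Neurod6, 0.0037 for Slc17a7, 0.0098 for Tbr1 and 0.023 for Neurod2, and none passed after adjustment. Other lists were also one-sided between genotypes. Of the 8 striatal markers 7 averaged higher and 1 lower (median 0.19), with 2 at an unadjusted limma p under 0.05. All 7 tested hindbrain markers (median −0.68) and all 6 oligodendrocyte markers (median −0.094) averaged lower. None of these passed in limma. The part of these cell types in the values of the long genes was not tested.

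**Figure D1:**
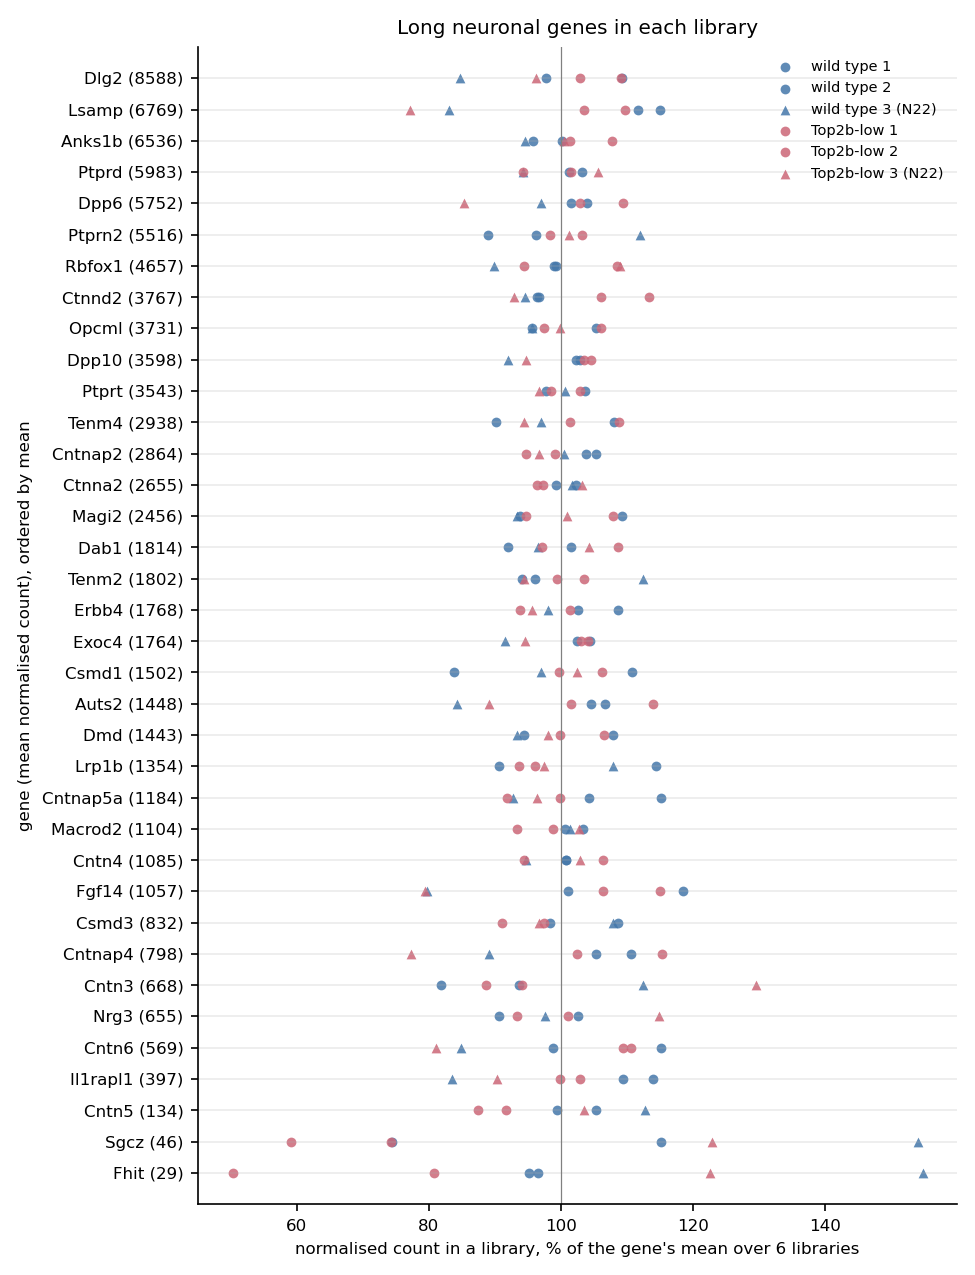
Normalised count of each long gene in each of the 6 libraries, as a percentage of the gene's mean over the libraries (x axis), with genes ordered by mean normalised count (y axis, mean in brackets, not corrected for length). Blue is wild type, red is Top2b-low, and triangles are the N22-named libraries. Blue and red points intermix for nearly all genes, while triangles sit to the left for Lsamp, Fgf14 and Cntn6 and to the right for Cntn3 and Sgcz.

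The precision of these differences was set beside the fall of Top2b RNA itself. The 95% interval of that fall ran from −0.69 to −0.16 in limma, and these libraries do not measure its protein. The median SE of the members' log2 differences was 0.094. For 31 members the lower bound of the 95% interval lay above −0.42, the difference of Top2b, and for 29 members the whole interval lay within 0.42 of 0 on either side. The 7 whose intervals reached beyond were Cntn5, Cntnap4, Lsamp, Cntn3, Fgf14, Sgcz and Fhit. Adding a term for the N22-named libraries raised the count within to 33, with Cntn5, Sgcz and Fhit still reaching beyond. The share of all tested genes within these bounds is not given here, so the counts do not single out long genes. Again no member had an unadjusted p under 0.05, the lowest limma p being 0.0674 for Csmd3 (lowest adjusted p of the 36, 0.890). With the N22 term limma called 0 genes, with 1011 (5.81%) at an unadjusted p under 0.05, and gave Top2b an adjusted p of 0.224. With the same term in DESeq2, 15 genes passed the threshold (0.0935% of those given an adjusted p), 1 higher and 14 lower, Top2b among them (adjusted p = 3.2e-05), and 0 of the 36 members.

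**Figure D2:**
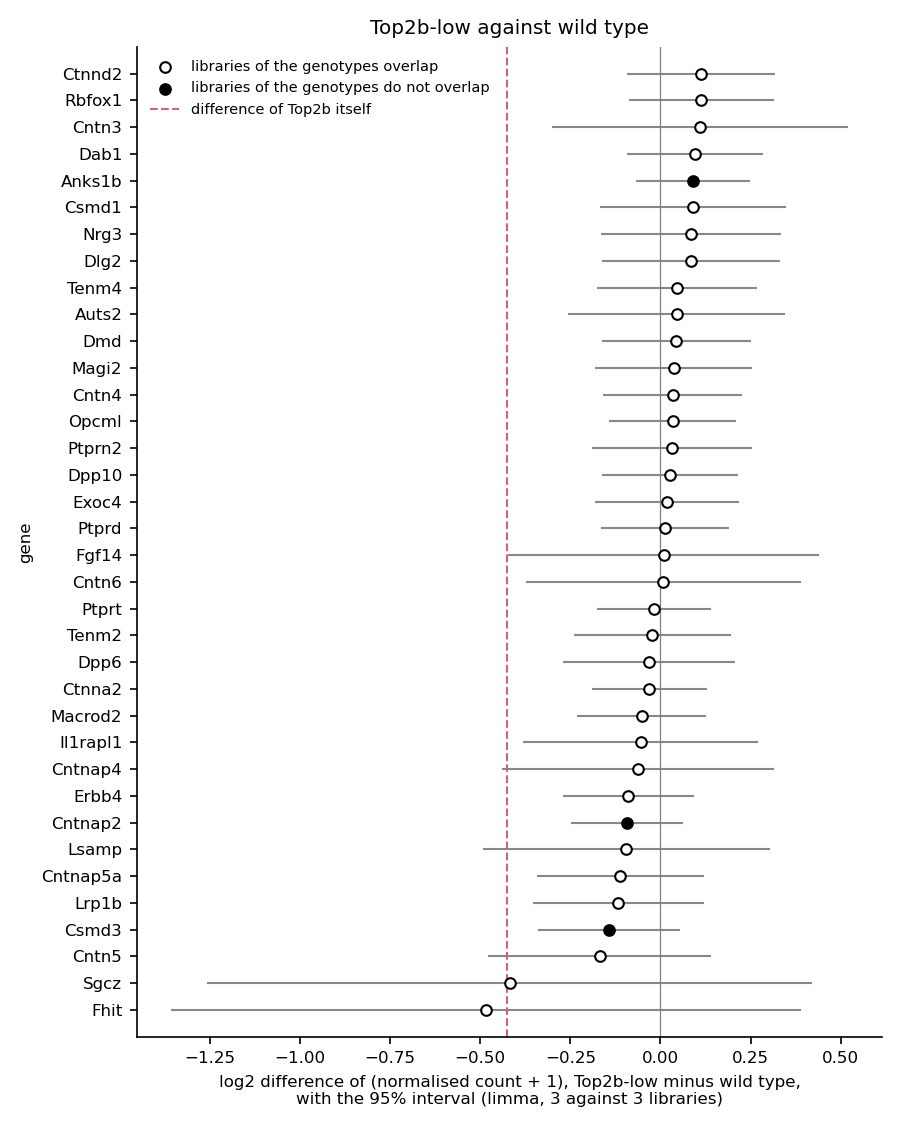
Log2 difference of (normalised count + 1) between Top2b-low and wild-type libraries for each long gene, with its 95% interval from limma, 3 libraries per genotype. Filled points mark the 3 genes with non-overlapping genotypes, and the dashed line marks the difference of Top2b at −0.42. All 36 intervals include 0.

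Contactins are immunoglobulin-type adhesion proteins anchored to the membrane by a lipid, and the contactin-associated proteins are transmembrane partners of them. Of these 7 members 3 averaged higher and 4 lower in Top2b-low libraries, with a median log2 difference of −0.062. Cntnap2, which gathers potassium channels beside the nodes of myelinated axons, stood at 3017, 2972 and 2878 normalised counts in wild type replicates 1 to 3 and at 2712, 2837 and 2769 in Top2b-low replicates 1 to 3. Every Top2b-low library was below every wild-type library, by a margin smaller than the range within either genotype. The log2 difference of Cntnap2 (ENSMUSG00000039419, chromosome 6) was −0.092 (SE 0.066, 95% interval −0.25 to 0.063, limma adjusted p = 0.99997). It was −0.11 among the 4 libraries outside N22 and −0.056 between the N22-named libraries. Cntn5 had the lowest level of the 7 per kb of exon, with 141, 133 and 151 normalised counts in wild type and with 117, 123 and 138 in Top2b-low replicates. Those genotypes overlapped through the N22-named Top2b-low library, and the log2 difference was −0.17 (SE 0.13). Cntn4 ranged from 1025 to 1154 over the 6 libraries, with a log2 difference of 0.034, and Cntnap5a from 1087 to 1362, with one of −0.11. For the remaining 3 the spread followed the library name and not the genotype. Cntn3 stood at 547, 625 and 751 in wild type and at 629, 592 and 866 in Top2b-low replicates, the N22-named libraries being the highest. Cntn6 stood at 656, 563 and 483 and at 630, 623 and 462, and there the N22-named libraries were the lowest. Cntnap4, a presynaptic member of the family, stood at 840.5, 882 and 711 and at 817, 920.2 and 616, again lowest in the N22-named libraries. The log2 differences between genotypes were 0.11 for Cntn3, 0.0082 for Cntn6 and −0.062 for Cntnap4.

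The other adhesion proteins and catenins were 7 members, 3 averaging higher and 4 lower, with a median of −0.022. Lsamp, a lipid-anchored protein of the IgLON family, stood at 7557, 7782 and 5622 normalised counts in wild type replicates 1 to 3 and at 7004, 7425 and 5223 in Top2b-low replicates 1 to 3. The N22-named libraries were the lowest of each genotype, and the genotypes overlapped (log2 difference −0.094, SE 0.17). Opcml, of the same family, ranged from 3567 to 3959 with a log2 difference of 0.034. Il1rapl1, a postsynaptic partner of presynaptic receptor phosphatases, stood at 435, 452 and 332 and at 409, 397 and 359, with a log2 difference of −0.055. The teneurins are large transmembrane proteins that bind partners across the synapse. Tenm2 ranged from 1696 to 2027 and Tenm4 from 2650 to 3197, with log2 differences of −0.022 and 0.046. Tenm2 was the 1 member with an unadjusted p under 0.05 for a genotype difference that itself differed by library name. It was 0.093 outside N22 and −0.25 between the N22-named libraries. Over all genes limma gave that contrast an unadjusted p of 0.0194 and an adjusted p of 0.997. In that test 624 genes (3.59%) had such a p and 4 genes (0.0230%) passed after adjustment, with 0 members. Ctnna2, which links cadherins to actin in neurons, ranged from 2558 to 2739, and its log2 difference was −0.031. Ctnnd2, a catenin of dendrites, had the most positive of the 36 log2 differences, 0.11 (SE 0.088), with a range from 3502 to 4267. Among the 4 libraries outside N22, Ctnnd2 (0.18, SE 0.067, unadjusted p = 0.0238) and Cntnap5a (−0.19, SE 0.086, unadjusted p = 0.0494) were the 2 members with an unadjusted limma p under 0.05, as were 4.70% of genes. Neither passed after adjustment (adjusted p = 0.951 for both), and between the N22-named libraries the differences were −0.024 and 0.053.

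The 3 receptor phosphatases differed little between genotypes, with log2 differences from −0.019 to 0.033. Ptprd, which organises presynaptic terminals, stood at 6051, 6175 and 5640 normalised counts in wild type and at 5638, 6070 and 6323 in Top2b-low replicates 1 to 3. Its genotypes overlapped throughout, and the 95% interval of its log2 difference of 0.013 ran from −0.17 to 0.19. Ptprt, a phosphatase that binds itself across cell contacts, stood at 3463, 3671 and 3564 and at 3489, 3646 and 3428. Ptprn2, a protein of dense-core secretory vesicles, ranged from 4911 to 6172, its log2 difference being 0.033 (SE 0.095).

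Among the other receptors, ligands and large surface proteins 2 of 5 averaged higher and 3 lower in Top2b-low libraries. Erbb4, the neuregulin receptor of many interneurons, stood at 1813, 1921 and 1734 normalised counts in wild type and at 1659, 1792 and 1690 in Top2b-low replicates 1 to 3. Only the second Top2b-low library reached into the wild-type range, and the log2 difference was −0.089 (SE 0.077). Nrg3, a ligand of that receptor, stood at 672, 594 and 639 and at 662, 612 and 752, with a log2 difference of 0.085 (SE 0.11). Csmd3, a giant transmembrane protein with CUB and Sushi domains, had the smallest unadjusted p of the 36. It stood at 817, 904 and 898 in wild type and at 810, 758 and 804 in Top2b-low replicates, without overlap but with little space between the nearest values. The log2 difference of Csmd3 (ENSMUSG00000022311, chromosome 15) was −0.14 (SE 0.084, 95% interval −0.34 to 0.054, limma unadjusted p = 0.132, adjusted p = 0.99997). It was −0.13 outside N22 and −0.16 between the N22-named libraries. Its relative Csmd1, an inhibitor of complement, ranged from 1260 to 1663 with a log2 difference of the other sign, 0.091 (SE 0.11). Lrp1b, a large endocytic receptor of the LDL receptor family, ranged from 1227 to 1548 with a log2 difference of −0.12 (SE 0.10).

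Of the 6 scaffold, membrane skeleton and trafficking genes 5 averaged higher and 1 lower, with a median of 0.040. Dlg2 encodes the postsynaptic scaffold PSD-93, and it stood at 8400, 9383 and 7275 normalised counts in wild type and at 8836, 9369 and 8264 in Top2b-low replicates 1 to 3. The genotypes overlapped, the N22-named library was the lowest of each, and the log2 difference was 0.085 (SE 0.11). Anks1b, a protein of the postsynaptic density, stood at 6259, 6547 and 6181 and at 6628, 7041 and 6562. Each Top2b-low library was above each wild-type library, the nearest values being 6562 and 6547. The log2 difference of Anks1b (ENSMUSG00000058589, chromosome 10) was 0.091 (SE 0.067, 95% interval −0.067 to 0.25, limma adjusted p = 0.99997), and it was 0.094 outside N22 and 0.086 between the N22-named libraries. Magi2, another synaptic scaffold, ranged from 2294 to 2683. Dmd, whose product dystrophin ties actin to the dystroglycan complex, ranged from 1346 to 1557. Exoc4, a subunit of the exocyst that tethers vesicles to the membrane, ranged from 1614 to 1842. The log2 differences of Magi2, Dmd and Exoc4 were 0.036, 0.044 and 0.017. Sgcz, a sarcoglycan, was near the bottom of the range, with 34.0, 52.6 and 70.4 in wild type and with 27.1, 34.0 and 56.2 in Top2b-low replicates. Its log2 difference of −0.42 had an SE of 0.36 and a 95% interval from −1.26 to 0.42. With the N22 term that interval ran from −0.92 to 0.088.

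The 3 channel partners had log2 differences between genotypes from −0.031 to 0.027, though the 95% interval of Fgf14 ran from −0.42 to 0.44. Dpp6 and Dpp10 are transmembrane subunits that speed the gating of Kv4 potassium channels, and Fgf14 is an intracellular protein that binds voltage-gated sodium channels. Dpp6 stood at 5980, 5838 and 5578 normalised counts in wild type and at 5916, 6288 and 4911 in Top2b-low replicates 1 to 3, with a log2 difference of −0.031 (SE 0.10). Dpp10 ranged from 3312 to 3763, with a log2 difference of 0.027 (SE 0.080). Fgf14 stood at 1068, 1252 and 842 and at 1123, 1215 and 839.5, with a log2 difference of 0.0087 (SE 0.18). In all 3 the N22-named libraries were the lowest of each genotype.

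Of the nuclear, signalling and enzyme genes 3 of 5 averaged higher and 2 lower. Rbfox1, a splicing factor of neurons, stood at 4608, 4620 and 4186 normalised counts in wild type and at 4399, 5055 and 5071 in Top2b-low replicates 1 to 3. The first Top2b-low library lay within the wild-type range and the others above it, with a log2 difference of 0.11 (SE 0.086). The difference of Rbfox1 was 0.031 outside N22 and 0.28 between the N22-named libraries. Auts2, a nuclear protein that works with Polycomb complexes, stood at 1515, 1544 and 1220 and at 1470, 1650 and 1290, lowest in the N22-named libraries (log2 difference between genotypes 0.045). Dab1, the adaptor of the reelin receptors, ranged from 1668 to 1972 with a log2 difference of 0.096 (SE 0.080). Macrod2, an enzyme that removes ADP-ribose from proteins, ranged from 1030 to 1140, its log2 difference being −0.052 (SE 0.076). Fhit, a nucleotide hydrolase whose human gene lies at a fragile site, was the lowest by count, with 27.9, 27.6 and 44.8 in wild type and with 23.4, 14.6 and 35.5 in Top2b-low replicates. Its log2 difference of −0.48, the most negative of the 36, had an SE of 0.37 and a 95% interval from −1.36 to 0.39, or from −1.07 to 0.10 with the N22 term. For 16 of the 36 members the sign of the genotype difference was not the same outside N22 as between the N22-named libraries. The share of all tested genes with such a change of sign is not given here. In the limma test of that contrast 0 members passed after adjustment.

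More of the long genes differed by library name than by genotype. Their share was near that of all genes and below that of highly expressed or other very long genes. With genotype in the model, 10 of the 36 (27.8%) passed the limma test between N22-named and other libraries, where 28.0% of all tested genes passed. Of tested genes with a mean of at least 1000, 40.2% passed, and of the 64 other genes over 800 kb, 42.2%. Lower in the N22-named libraries were 8 members (16.7% of all genes) and higher were 2 (11.3%). The median over the 36 was −0.039, with 13 members averaging higher and 23 lower. It was −0.0046 for all tested genes and −0.058 for those with a mean of at least 1000. In 14 members the N22-named libraries did not overlap the others, and 49.3% of all tested genes were so separated. The summed level of the 36 was 86157 to 87597 in the N22-named and 89755 to 95654 in the other libraries. Marker lists differed between the same libraries. Past the threshold, lower in the N22-named libraries, were 8 of 8 granule cell and 7 of 7 tested hindbrain markers. Of the 8 Purkinje cell markers 7 were lower and 1 higher, with a summed level of 22764 to 27154 normalised counts against 43801 to 52141. Of the 8 forebrain excitatory markers 5 were higher (73611 to 86335 against 57675 to 71225), and of the 8 striatal markers also 5 (16143 to 17572 against 12952 to 15089). Of the 8 interneuron markers 4 were higher and 2 lower (22228 to 23529 against 22585 to 25510). Lower were 3 of 6 astrocyte markers (57597 to 65218 against 72826 to 75605), 3 of 5 endothelial markers (2550 to 2775 against 3278 to 3425), 2 of 6 oligodendrocyte markers (110506 to 117111 against 119927 to 132133) and 1 of 4 precursor markers (2775 to 3013 against 2996 to 3212), and 1 of 5 microglial markers was higher (3370 to 3522 against 3186 to 3406). The part of these cell types in the differences of the long genes was not tested. Top2b itself was lower in the N22-named libraries (log2 difference −0.25, SE 0.063, limma adjusted p = 0.0161). The 8 general neuron markers, among them Rbfox3, Snap25 and Map2, had a median log2 difference of 0.0090 there, with 1 of 8 passing the test, lower, and a summed level of 135841 to 146886 in the N22-named against 138870 to 143824 in the other libraries.

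The clearest of these differences were those of Lsamp and Fgf14. Lsamp (ENSMUSG00000061080, chromosome 16) averaged 5423 ± 282 normalised counts (SD, n = 2) in the N22-named and 7442 ± 327 (n = 4) in the other libraries, a difference of −27.1% (log2 difference −0.46, SE 0.055, limma adjusted p = 0.000362). Fgf14 (ENSMUSG00000025551, chromosome 14) averaged 841 ± 1.79 and 1165 ± 84.3, a difference of −27.8% (log2 difference −0.47, SE 0.079, limma adjusted p = 0.00238). Both passed under all 10 alternatives that were run. Cntnap4 (−0.38), Cntn6 (−0.38), Auts2 (−0.30), Il1rapl1 (−0.29), Dlg2 (−0.21) and Dpp6 (−0.20) were the other members that were lower, with limma adjusted p from 0.00746 to 0.0482. Cntn3 (ENSMUSG00000030075, chromosome 6) was higher, averaging 808 ± 81.0 against 598 ± 38.2, 35.1% higher (0.43, SE 0.084, limma adjusted p = 0.00455). Sgcz was higher by 0.79 (SE 0.24, limma adjusted p = 0.0338), with 63.3 ± 10.0 against 36.9 ± 11.0 normalised counts. In all 10 members each N22-named library lay beyond both other libraries of its genotype. The 10 were selected by the test on these same values, so that separation adds no support of its own. The contactin family was thus split, Cntn3 being higher and Cntn6 and Cntnap4 lower, while the other 4 of its 7 members did not pass. All 3 channel partners were lower in value, of which Dpp6 and Fgf14 passed and Dpp10 did not (−0.15, limma adjusted p = 0.0661). None of the 3 receptor phosphatases and none of the 5 other receptors, ligands and surface proteins passed the limma test. None of these 8 had an unadjusted p under 0.05 either, nor passed in edgeR or DESeq2. An unadjusted p under 0.05 was found for 13 of the 36 (40.0% of all genes), the 10 members named and Exoc4, Dpp10 and Fhit.

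**Figure D3:**
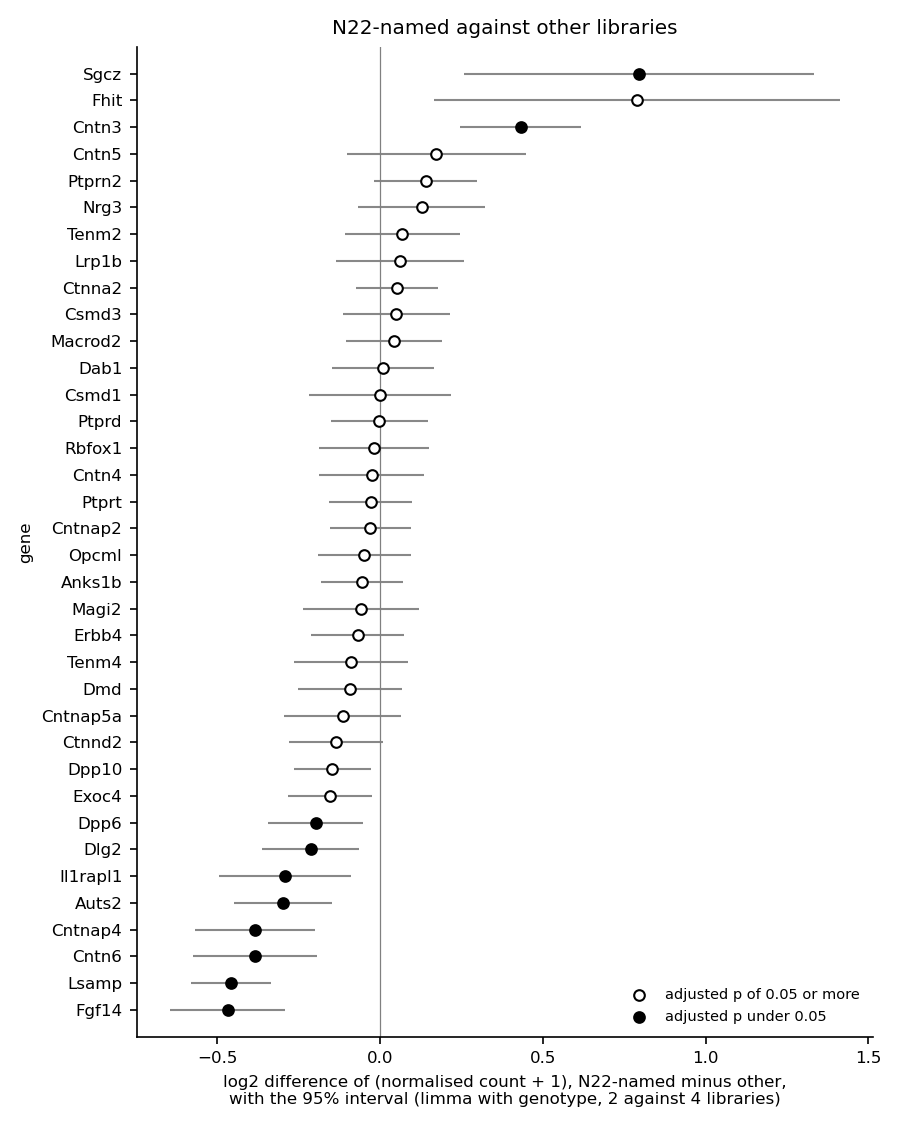
Log2 difference of (normalised count + 1) between the 2 N22-named and the 4 other libraries for each long gene, with its 95% interval from limma with genotype in the model. Filled points mark the 10 genes with an adjusted p under 0.05, 8 lower and 2 higher.

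Several of these calls were lost when 1 library was left out. Without an N22-named library that group holds 1 sample, which limma assumes to vary like the others. Leaving out Top2b-low replicate 3, itself N22-named, left 2 of the 36 past the threshold, Lsamp (adjusted p = 0.0108) and Fgf14 (adjusted p = 0.0431) in limma. The log2 difference of Cntn3 was then 0.36 (adjusted p = 0.0992 in limma), that of Cntnap4 −0.28 (0.154), that of Cntn6 −0.33 (0.131) and that of Auts2 −0.33 (0.0732). Without wild type replicate 3, the other N22-named library, 5 passed, and Cntn6 (−0.44, limma adjusted p = 0.0560) and Auts2 (−0.27, limma adjusted p = 0.116) did not. Without wild type replicate 1, 6 passed. Dlg2, Il1rapl1 and Dpp6 passed under 3 of the 10 alternatives each and Sgcz under 4. With edgeR 9 members passed, Fhit among them (adjusted p = 0.0365), and with DESeq2 8.

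The sequences just upstream of 3 of these genes are shown because their levels separated the N22-named libraries from the others in opposite directions, Cntn3 upward and Cntn6 and Fgf14 downward. They are the 250 bases before the annotated start, 5′ to 3′ on the gene's strand, from the RefSeq promoter table for GRCm38.p6, in which 28 of the 36 members had an entry. Capitals mark matches to GGGCGG (the GC box), TATAAA (the TATA box) and CAGCTG (an E-box, the same on both strands), searched on both strands with no overlap between them.
Cntn3 (chr6:102464668-102464917, - strand): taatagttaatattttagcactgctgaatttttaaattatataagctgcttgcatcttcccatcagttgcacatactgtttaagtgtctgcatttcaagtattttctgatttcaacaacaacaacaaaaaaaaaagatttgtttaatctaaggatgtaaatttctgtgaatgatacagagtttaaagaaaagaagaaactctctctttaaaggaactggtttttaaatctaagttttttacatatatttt
Cntn6 (chr6:104492794-104493043, + strand): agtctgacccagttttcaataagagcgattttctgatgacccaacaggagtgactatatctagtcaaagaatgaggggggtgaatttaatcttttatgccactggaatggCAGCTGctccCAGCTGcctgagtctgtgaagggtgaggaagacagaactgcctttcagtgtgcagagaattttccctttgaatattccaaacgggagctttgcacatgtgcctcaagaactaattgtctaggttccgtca
Fgf14 (chr14:124192547-124192796, - strand): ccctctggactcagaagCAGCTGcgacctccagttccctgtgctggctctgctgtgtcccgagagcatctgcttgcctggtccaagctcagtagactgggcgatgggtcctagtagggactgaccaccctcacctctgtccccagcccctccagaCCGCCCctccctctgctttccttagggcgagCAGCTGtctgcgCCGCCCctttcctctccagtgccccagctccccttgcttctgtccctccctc
The windows differed widely in base composition, with 26.4% G and C for Cntn3, 45.2% for Cntn6 and 64% for Fgf14, against a median of 52.4% over all 32536 windows. The Cntn3 window held no match, that of Cntn6 held 2 of CAGCTG, and that of Fgf14 held 2 of GGGCGG and 2 of CAGCTG. Of all windows 33.0% held GGGCGG, 12.3% TATAAA and 13.1% CAGCTG. These matches describe the letters of the windows only.

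Gene length was then followed across all tested genes, of which 16515 had an annotated span. Of the 92 that spanned over 800 kb, 28 were among the members. The median log2 difference between genotypes was −0.0073 for genes up to 100 kb, 0.017 for 100 to 200 kb, 0.016 for 200 to 400 kb, 0.045 for 400 to 800 kb and 0.00077 for those over 800 kb. Without the members the last value was 0.0014 over 64 genes. From the shortest to the longest class, 47.3%, 58.0%, 56.9%, 64.9% and 51.1% of genes were higher in Top2b-low libraries, against 49.4% of all tested genes. In every class the middle 50% of genes reached to both sides of 0, and no gene of any class passed the limma test. Between N22-named and other libraries the medians were 0.0039, −0.11, −0.083, −0.047 and −0.045 from the shortest to the longest class. The members' own medians were 0.011 for genotype and −0.039 for library name.

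**Figure D4:**
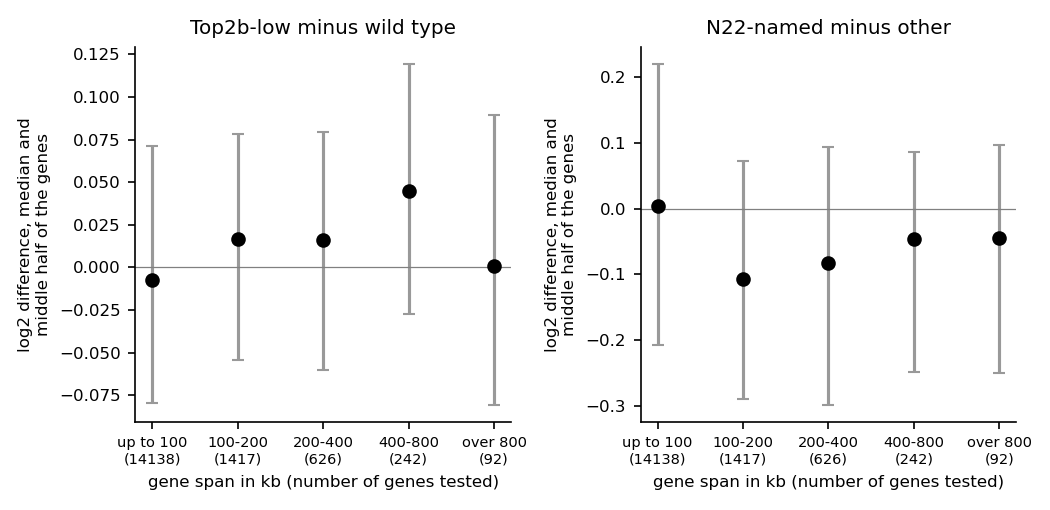
Median log2 difference (points) and the range of the middle 50% of genes (bars) by class of gene span in kb, with the number of genes tested in brackets, for Top2b-low minus wild type (left) and N22-named minus other libraries (right). The y axes have different scales. The medians for genotype lie between −0.0073 and 0.045, and those for library name between −0.11 and 0.0039.

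The same comparisons were made for further long genes and for shorter relatives of the members. Of 62 other long genes of neurons, listed by symbol, 60 were matched and tested, and 34 averaged higher and 26 lower in Top2b-low libraries, with a median of 0.013. None passed in limma. Sox5, a transcription factor (log2 difference 0.20, limma unadjusted p = 0.0383), and Robo2, a receptor for Slit guidance cues (0.19, limma unadjusted p = 0.0417), were the 2 with an unadjusted p under 0.05. In the 40 shorter relatives of the members, such as Cntn1, Dlg4 and Erbb2, 24 averaged higher and 16 lower, with a median of 0.022. None of them passed in limma or had an unadjusted p under 0.05. Not all of these relatives were short. Sgcd spanned 1093 kb, Utrn 487 kb and Rbfox3 422 kb, against 313 kb for Cntnap4, the shortest member. By library name 25 of the 60 long genes averaged higher and 35 lower in the N22-named libraries, of which 6 and 18 passed in limma. Of the 40 shorter relatives 11 averaged higher and 29 lower, of which 1 and 13 passed. Over all tested genes 11.3% passed as higher and 16.7% as lower.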

How the data were processed

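Bulk RNA-seq of 6 libraries was analysed, grouped by the genotype and replicate number in the sample titles. The authors deposited normalised counts, which are a signal and not raw reads, in 1 table. RSEM and mm39 are named in the submitters' processing notes. The annotation and the strand setting were not given in the labels used here. All values (100%, tolerance 1e-06 reads) were whole multiples of what 1 read is worth, so whole counts were recovered. Whether they are counts of reads or rounded estimates is not given. The deposited factors equalled DESeq2's median-ratio factors. Symbols came from a reference list of gene names, which gave a symbol to 51498 of 78298 identifiers. Spans and exon lengths came from GENCODE vM21 (GRCm38). That is not the build of the deposited data, so the only coordinates given are those of the promoter table, in its own build.

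Values were compared on log2(normalised count + 1), a scale that understates changes of low genes, for genes with a mean of at least 10, with two-sided limma tests (version 3.58.1, trended empirical Bayes, R 4.3.3) and Benjamini-Hochberg adjustment over all 17391 genes, at a threshold of 0.05. The comparison by library name had genotype as a covariate. Alternatives were a pseudocount of 5, no filter, edgeR 4.0.16 and DESeq2 1.42.0 on the recovered counts, an N22 term, the 4 libraries outside N22, the replicate number as a block, and each library left out in turn. The fits were tested on simulated data with genotype changes larger than that of Top2b, so their detection of smaller differences was not tested. All members are named. Values of every library are given for members with non-overlapping genotypes, for those past the threshold by library name, and for the highest and lowest mean of each role group. Members and lists were chosen with earlier results of these data known. A floor of 3 reads, for counting error only, equals 1.77 to 3.76 normalised counts. The series text counts mice per genotype, so libraries were taken as separate animals. For the replicate numbers, the correlation of deviations from the genotype means was 0.33, 0.35 and 0.68 for same-numbered pairs, all above 0.1. Crossing the numbers 1 and 2 gave 0.37 (wild type 1) and 0.24 (wild type 2), also above 0.1. Replicate 3 is N22-named in each genotype, so the difference by library name alone can make replicates 1 and 2 correlate. The check therefore cannot tell whether the numbers pair those libraries, and the replicate block was run as an alternative.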

Additional observations from a re-analysis of the deposited data

How the results depend on the processing

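Between genotypes no member crossed the threshold under any of the 14 alternatives. The sign held in all of them for 16 members and changed in some for 20. The replicate block called 0 genes, left the members' median at 0.011 and changed no call. The N22 term in DESeq2 called 15 genes and Top2b at −0.42 (adjusted p = 3.2e-05). Without 1 library 0 to 1 genes passed, Top2b ran from −0.53 to −0.36 and the members' median from −0.026 to 0.033. By library name the sign held under all 10 alternatives for 27 members, and 9 members changed side of the threshold. Without the filter on low values 6 members passed, 35817 genes being tested instead of 17391. Without 1 library 2 to 8 members and 1711 to 4576 genes passed, and the members' median ran from −0.072 to −0.016. The causes of these changes were not tested.

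In the 4 libraries outside N22 the genotype difference was −0.0077 for Cntn4, 0.0099 for Cntnap4, 0.093 for Tenm2, −0.063 for Ptprd, 0.00034 for Ptprt, −0.0019 for Magi2 and 0.046 for Dpp6. By library name edgeR gave 0.020 for Ptprd and 0.0033 for Rbfox1, and DESeq2 gave −0.0058 for Csmd1. Leaving out each library in turn, the genotype difference ran over these ranges where its sign turned: Auts2 −0.064 to 0.14, Cntn3 −0.058 to 0.23, Cntn4 −0.0023 to 0.083, Cntn6 −0.10 to 0.15, Cntnap4 −0.19 to 0.10, Csmd1 −0.011 to 0.19, Dlg2 −0.011 to 0.17, Dpp10 −0.025 to 0.072, Dpp6 −0.10 to 0.074, Exoc4 −0.041 to 0.061, Fgf14 −0.14 to 0.17, Il1rapl1 −0.19 to 0.028, Lsamp −0.24 to 0.061, Magi2 −0.012 to 0.11, Opcml −0.0015 to 0.080, Ptprd −0.026 to 0.058, Ptprn2 −0.041 to 0.12, Ptprt −0.044 to 0.0025, Tenm2 −0.070 to 0.058, Tenm4 −0.015 to 0.12. For library name the ranges were Cntn4 −0.089 to 0.037, Cntnap5a −0.24 to 0.0090, Csmd1 −0.086 to 0.086, Dab1 −0.026 to 0.043, Lrp1b −0.014 to 0.13, Macrod2 −0.0092 to 0.097, Ptprd −0.12 to 0.11, Rbfox1 −0.14 to 0.10, Tenm2 −0.10 to 0.24.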
